A study of Mus musculus with 24 samples.

Results

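Most open chromatin of a neuron lies in introns and between genes, and a smaller part lies over the transcribed ends and exons of genes. That smaller part is described here in striatal neurons of a mouse model of Huntington's disease, with and without the DNA repair gene Msh3. Of 147020 peaks in the deposited table, 11775 on chromosomes 1 to 19 had an annotation that began with exon (6066 peaks), 5' UTR (1748), 3' UTR (1762) or TTS (2199). UTR is the untranslated part of a transcript, and TTS marks the end of a transcript. The rule that picked these peaks reads the annotation alone and uses no count. It was set with earlier results of these data known.

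ATAC-seq, which inserts sequencing adapters into accessible DNA with the Tn5 transposase, was run on 50000 NeuN-positive nuclei per animal. NeuN is a nuclear protein of most neurons, so every kind of striatal neuron that carries it was collected. The 24 mice were 12 months old on a C57BL/6 background, with 3 females and 3 males in each of 4 genotypes. WT is wild type, Q140 carries 1 knock-in allele of Htt (the huntingtin gene) with an expanded CAG repeat, Msh3KO lacks Msh3 on both chromosomes, and Q140_Msh3KO carries both changes. The labels name no Cre or tissue-restricted allele, and repeat lengths and the design of the Msh3 allele were not given in the sources used here.

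As background, a 5' UTR peak usually covers the first exon just beyond a promoter, where transcription factors and the polymerase keep DNA free of nucleosomes. Open sites in internal exons, in 3' UTRs and at transcript ends are often enhancers or binding sites of CTCF that happen to fall in transcribed sequence. In Huntington's disease, identity genes of striatal projection neurons lose activity, and genes normally silenced by Polycomb are known to become more active. Msh3 encodes a mismatch repair protein that recognises small DNA loops and makes CAG repeats grow in somatic cells.

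Short stretches of the promoter windows under 5' UTR peaks show the kind of sequence these peaks cover. They are shown for 5' UTR peaks named below, from RefSeq on GRCm38.p6, on the strand of the gene, 5' to 3'. Capitals mark a match, on either strand, to the motif named before the sequence, which lay upstream of the start and inside the peak.
Cdkn2b, chr4:89311060-89311089, minus strand, CRE: tatttgtctcaTGACGTCAccaagtgtggg
Vgll2, chr10:52022448-52022477, plus strand, GC box: gtcctttggtccCCGCCCcctcttagcgtc
Optn, chr2:5064137-5064166, minus strand, GC box: agagctacagagGGGCGGagcgttgggcgt
Tbc1d5, chr17:51159449-51159478, minus strand, GC box: gttgccaggaaaGGGCGGggccagctctcc
Naif1, chr2:32450364-32450393, plus strand, CCAAT box: catattcgcactCCAATtcgacaaagggat
Tarbp2, chr15:102518037-102518066, plus strand, CCAAT box: ctctcagtatagCCAATaaagcagcgaagc
Taok2, chr7:126885072-126885101, minus strand, ETS site: ggtttcccgcctTTCCGGcgcccagctgcc
The motifs were searched on both strands. The GC box was read as GGGCGG, the CCAAT box by the letters of its name, and the TATA box as TATAAA. The cAMP response element (CRE) was read as TGACGTCA, the AP-1 site as TGAGTCA, the E-box as CACGTG and the ETS site as CCGGAA. None of these motifs contains another. A window of 300 bases around the RefSeq start of the host gene was found for 1115 of the 1748 peaks, with an overlap of at least 50 bases. Of those windows, 65.4% held a GC box, against 35.7% of all 32851 promoter windows. A CRE was in 3.86% against 1.79%, an ETS match in 21.4% against 14.9% and a CCAAT in 36.8% against 37.4%. TATA boxes were in 6.10% against 13.6%, E-boxes in 10.9% against 7.15% and AP-1 matches in 2.51% against 5.20%. The median window under a 5' UTR peak was 61.3% G or C and held 20 CpG pairs, against 52.7% and 7 over all windows. A GC box was in 19 of the 25 windows under peaks higher in Q140 than in WT and in 6 of the 8 under lower peaks. CCAAT was in 5 of those 25 and in 6 of those 8. These are letter matches, and no factor was measured.

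The TTS peak with the largest fall in Q140 lies beside the Mir429 hairpin, the last of the miR-200b, miR-200a and miR-429 cluster on chromosome 4. This family is known for repressing the Zeb transcription factors. The mature 3p forms, from RefSeq, have their seeds (bases 2 to 8) in capitals.
mmu-miR-200b-3p: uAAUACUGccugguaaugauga
mmu-miR-429-3p: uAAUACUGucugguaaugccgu
mmu-miR-200a-3p: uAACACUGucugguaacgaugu
The first pair share the seed AAUACUG, and miR-200a-3p has AACACUG.

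Deposited reads in peaks ran from 4372251 to 11736557 per library, and the median tested member held 33 counts in a library. The 4 classes took 8.41 to 10.8% of a library's counts. The female library Q140 F2 had 1.47% of its counts on chromosome X, against 1.72 to 1.94% in the other 11 female and 1.49 to 1.59% in the 12 male libraries. Library Q140_Msh3KO M1 had 12.7% of its counts in its 10 highest peaks, against 2.52 to 6.82% in the others. Both libraries were kept, and results that rest on them are given with and without them. Marker genes were read from the peak nearest each start, as CPM (read counts scaled to equal library sizes) summed per library. Some of these peaks lay far from the start, at 7790 (Gja1), 15347 (Rgs5), -15236 (P2ry12) and 50817 bases (Slc1a3). Over all libraries, 10 striatal projection neuron markers summed to 226 to 355 CPM and 3 neuron markers to 76.4 to 128 CPM. The 3 cortical glutamatergic markers summed to 17.4 to 24.9 CPM and 2 oligodendrocyte precursor markers to 9.68 to 16.8. The 5 astrocyte markers summed to 14.6 to 27.0 CPM, 5 oligodendrocyte markers to 11.3 to 19.6 and 5 microglia markers to 8.81 to 19.0. These sums cover unlike numbers of genes, and no marker was at 0 over a genotype. The 4 endothelial and pericyte markers summed to 16.9 to 24.3 CPM in WT and 12.6 to 15.7 in Q140, a gap that lay at the Pecam1 peak (mean 11.2 against 6.46), while Cldn5 and Rgs5 had 4.13 and 2.16 in WT and 4.43 and 2.22 in Q140. The 5 astrocyte markers summed to 14.6 to 21.3 in WT and 19.1 to 22.4 in Q140, where most of the gap lay at Gja1 (9.93 against 12.1) and Gfap had 1.98 and 1.53. The 5 microglia markers summed to 12.0 to 18.0 in WT and 8.81 to 17.6 in Q140, where P2ry12 had 3.69 and 1.97 and Cx3cr1 had 1.20 and 1.64. The part of these cell types in the results below was not tested. Fewer nuclei of a type and less open chromatin per nucleus cannot be told apart in these samples.

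The classes differed in size, level and place. Exon, 3' UTR and TTS peaks had median lengths of 396, 360 and 388 bases, and 5' UTR peaks of 1024 bases. Median levels in WT, as CPM per kb of peak, were 9.02 for exon, 9.16 for 3' UTR and 9.95 for TTS peaks. Those values lie near the 8.71 of introns, while 5' UTR peaks reached 14.6, near the 16.2 of promoters. A 5' UTR peak lay a median of 182 bases from the nearest annotated start, an exon peak 7.51 kb, a TTS peak 8.40 kb and a 3' UTR peak 14.9 kb. The host gene, whose transcript the annotation names, was matched in RefSeq for 11753 of the 11775 peaks. The host gene also had the nearest start for 98.6% of 5' UTR peaks, but for 68.8% of exon, 49.3% of TTS and 40.9% of 3' UTR peaks. Genes are named below by host. For TTS peaks whose host strand was known (1646), the centre of the peak lay a median of 478 bases beyond the annotated end of the gene, with quartiles of 213 and 742.

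In Q140 against WT, 657 of the 11759 members tested passed an adjusted p of 0.05, and 458 of them were lower in Q140. Exon peaks were called 70 times higher and 212 times lower (4.65% of 6061), 3' UTR peaks 44 and 106 times (8.53% of 1759) and TTS peaks 47 and 126 times (7.89% of 2193). The 5' UTR peaks went the other way, with 38 higher and 14 lower (2.98% of 1746). Over all 146155 peaks tested, 10.3% were called, 4.2% higher and 6.11% lower. The share called in each of the 4 classes was under that of the table and lowest in 5' UTR peaks. Promoters had 3.31%, introns 10.4% and intergenic peaks 12.7%. Promoter calls also leaned upward, with 181 higher and 145 lower and a median log2 fold change of 0.05 over those tested. Median log2 fold changes over all tested members were 0.01 for exon, 0.07 for 5' UTR, -0.02 for 3' UTR and 0.01 for TTS peaks, and -0.01 for the whole table. Of these 4 medians, only that of 5' UTR peaks kept its sign in every fit run. Tests were edgeR quasi-likelihood tests over all 24 libraries, adjusted over the whole table by the Benjamini-Hochberg method, and each genotype has 6 libraries from 6 animals.

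With library sizes scaled by total counts in place of TMM, 5' UTR calls became 68 higher and 12 lower, and exon calls 103 higher and 190 lower. In that scaling the median of all peaks moved from -0.01 to 0.03. Without Q140 F2 and Q140_Msh3KO M1 the calls were 57 higher and 176 lower for exon, 31 and 10 for 5' UTR, 35 and 79 for 3' UTR and 37 and 110 for TTS peaks. Without WT F3, 3' UTR calls fell to 39 higher and 58 lower. As a share of a library's counts, 5' UTR peaks took 2.97 to 3.44% in WT and 3.16 to 3.63% in Q140, and 3' UTR peaks 0.861 to 0.948% and 0.868 to 0.923%. Both pairs of ranges overlap.

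**Figure D1:**
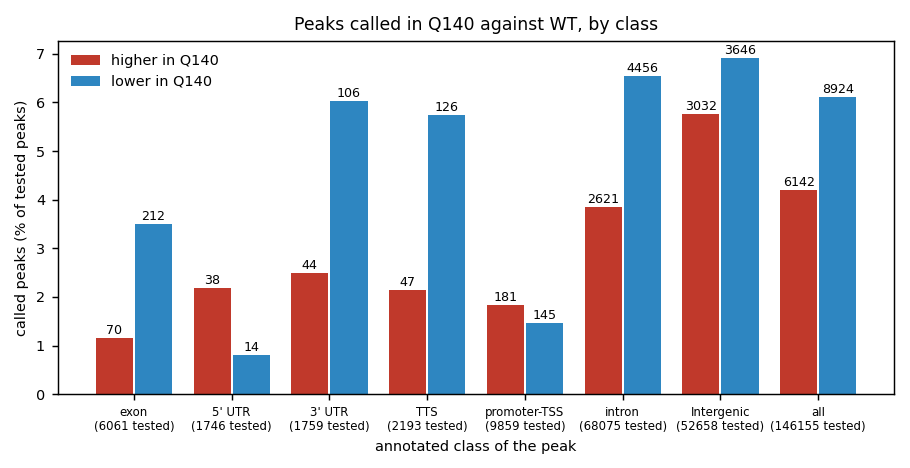
Peaks called in Q140 against WT in each annotated class, as a percent of the peaks tested (y axis), with red bars for peaks higher and blue bars for peaks lower in Q140 and the number of peaks above each bar. Lower calls exceed higher ones in exon (212 against 70), 3' UTR (106 against 44) and TTS peaks (126 against 47), and 5' UTR peaks have 38 higher and 14 lower.

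The classes were also read within quartiles of mean level over all tested peaks. In the top quartile, above 6.65 CPM, 8.24% of exon peaks (146 of 1772), 17.9% of 3' UTR peaks (67 of 375) and 12.8% of TTS peaks (82 of 639) were called. In 5' UTR peaks it was 2.52% (34 of 1349), and over all peaks 14.1%. Promoters of that quartile had 2.91%, introns 18.2% and intergenic peaks 19.5%. In the lowest quartile the shares were 0.992, 2.22, 2.73 and 1.30% for exon, 3' UTR, TTS and 5' UTR peaks, and 4.24% over all peaks. The median called fall was 0.63 on the log2 scale in exon, 0.60 in 3' UTR and 0.66 in TTS peaks. Falls of more than 1 (log2) numbered 17 of 212 in exon, 8 of 106 in 3' UTR and 14 of 126 in TTS peaks. Among 5' UTR peaks the median called rise was 0.47, and 0 of 38 exceeded 1. At the edge of the call, an exon peak of Med13l was just inside and one of Atp13a2 just outside (log2 fold changes of 0.60 and -0.72). For 3' UTR peaks these were Mrtfb at 0.67 and Hap1 at -0.39.

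By place in the transcript, peaks in internal exons were called 36 times higher and 166 times lower (5.91% of 3419). Peaks in the first of several exons were called 16 times higher and 14 times lower (2.44% of 1227), and those in the last 15 and 27 times (3.66% of 1147). Genes of a single exon had 3 higher and 5 lower peaks of 268. Exon peaks within 1 kb of any annotated start had 20 calls each way among 1533, while those 1 to 10 kb away had 21 higher and 86 lower of 1933 and those beyond 10 kb 29 and 106 of 2595. The share called beyond 10 kb was 5.20% in exon, 7.22% in TTS and 9.05% in 3' UTR peaks, against 11.5% of all peaks at that distance. Between 1 and 10 kb it was 5.54, 9.83 and 7.58%, against 9.94%. Within 1 kb, 2.61% of exon and 3.65% of TTS peaks were called, against 3.33% of all. Only 5 tested 3' UTR peaks lay within 1 kb of a start. Among 5' UTR peaks, those in exon 1 of the transcript had 36 higher and 11 lower of 1624, and those in exon 2 or later 2 and 3 of 122.

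**Figure D2:**
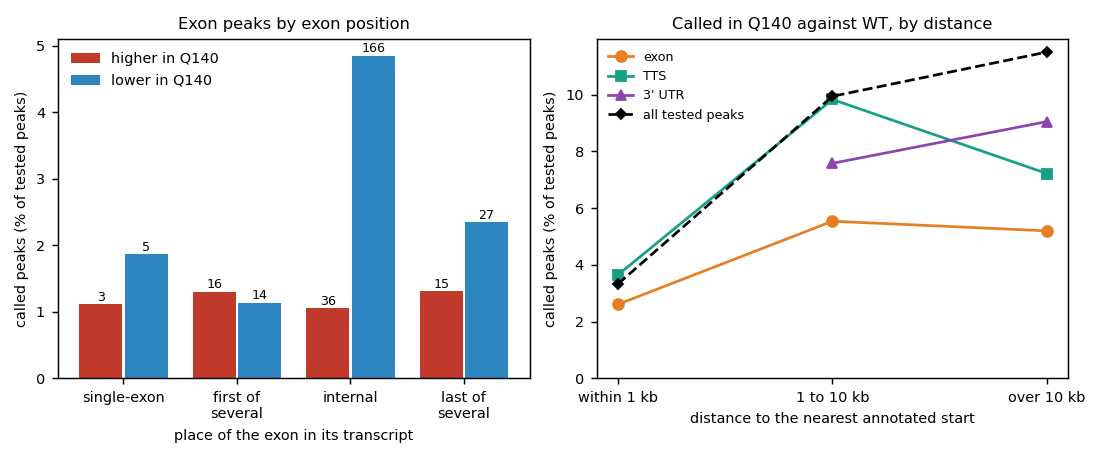
Left, exon peaks called in Q140 against WT as a percent of those tested, by the place of the exon in its transcript, with red bars for higher, blue bars for lower and the number of peaks above each bar; internal exons hold 166 of the 212 lower peaks. Right, percent called (either direction) by distance to the nearest annotated start, for exon, TTS and 3' UTR peaks and for all tested peaks (dashed), with the exon line at 5.20% and the dashed line at 11.5% beyond 10 kb.

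Peaks are named below by size of change among called peaks with at least 5 CPM in the higher genotype. The largest fall among exon peaks was in exon 10 of 14 of Ankrd35 (chr3:96682906-96683585, GRCm38 as for all positions), which encodes an ankyrin repeat protein. The peak held 8.49 to 14.6 (median 11.5) in WT and 3.31 to 4.06 (median 3.75) in Q140, as the lowest to the highest CPM over 6 libraries. Without Msh3 it held 8.64 to 14.5 (median 11.6) in Msh3KO and 5.90 to 8.68 (median 6.34) in Q140_Msh3KO. All 6 Q140 libraries were below all WT libraries, while the ranges without Msh3 met at their edges, and the log2 fold change of Q140 against WT was -1.67 ± 0.16 (adjusted p = 7.7e-10). An internal exon of Nolc1, a nucleolar phosphoprotein (chr19:46082652-46083145), held 4.80 to 9.28 (median 6.65) in WT and 2.09 to 3.07 (median 2.47) in Q140, with a change of -1.42 ± 0.17 (adjusted p = 1.7e-07). The groups did not overlap, and a promoter peak of Nolc1 had 30.1 CPM in WT and 30.9 in Q140, a change of 0.04 ± 0.12 (adjusted p = 0.925).

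Among the named exon peaks that fell, 3 lie in genes of multigene families. The last exon of Olfr701, an olfactory receptor gene (chr7:106818374-106819158), held 10.1 to 13.6 (median 12.8) in WT and 3.48 to 5.79 (median 4.60) in Q140. That is a change of -1.37 ± 0.17 (adjusted p = 3.5e-07), with no overlap between the groups. The first exon of Pcdhga4 (chr18:37687117-37687961), a gamma protocadherin that gives neurons a surface identity, held 18.2 to 26.1 (median 19.9) in WT and 5.78 to 12.1 (median 8.71) in Q140. Its change was -1.23 ± 0.13 (adjusted p = 2.0e-08), and again all 6 Q140 libraries were below all WT libraries. Both genes have close copies in their clusters, and the treatment of reads that map to several places was not given in the sources used here. An exon of Zfp607b, one of a family of zinc finger genes, had -1.14 ± 0.18 (adjusted p = 1.4e-05) with the same doubt.

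Exon peaks that rose were fewer. The second exon of Nkx2-3, a homeobox factor of spleen and gut development (chr19:43614584-43615020), held 1.18 to 3.57 (median 2.21) in WT and 4.31 to 7.16 (median 5.49) in Q140, and 2.05 to 3.21 (median 2.65) in Msh3KO and 1.67 to 3.71 (median 3.35) in Q140_Msh3KO. The Q140 libraries were all above the WT libraries, with a change of 1.22 ± 0.19 (adjusted p = 1.2e-05). In exon 10 of 48 of Ank2, the scaffold protein ankyrin-B (chr3:127038567-127039002), the values were 3.16 to 5.35 (median 3.95) in WT and 5.55 to 9.32 (median 6.64) in Q140 and the change 0.81 ± 0.17 (adjusted p = 7.3e-04). The last exon of Rab18, a small GTPase of the endoplasmic reticulum, rose by 0.70 ± 0.18 (adjusted p = 0.00590). It held 2.64 to 4.74 (median 3.29) in WT and 4.60 to 6.77 (median 5.79) in Q140, ranges that overlapped slightly. Exon 2 of Kazald1, a secreted protein with a Kazal domain, rose by 0.70 ± 0.18 (adjusted p = 0.00616), and the promoter peak of the same gene changed by 0.44 ± 0.11 (adjusted p = 0.00395). Kazald1 held 2.82 to 5.53 (median 4.15) in WT and 5.49 to 9.57 (median 6.25) in Q140, and the ranges again overlapped slightly.

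**Figure D3:**
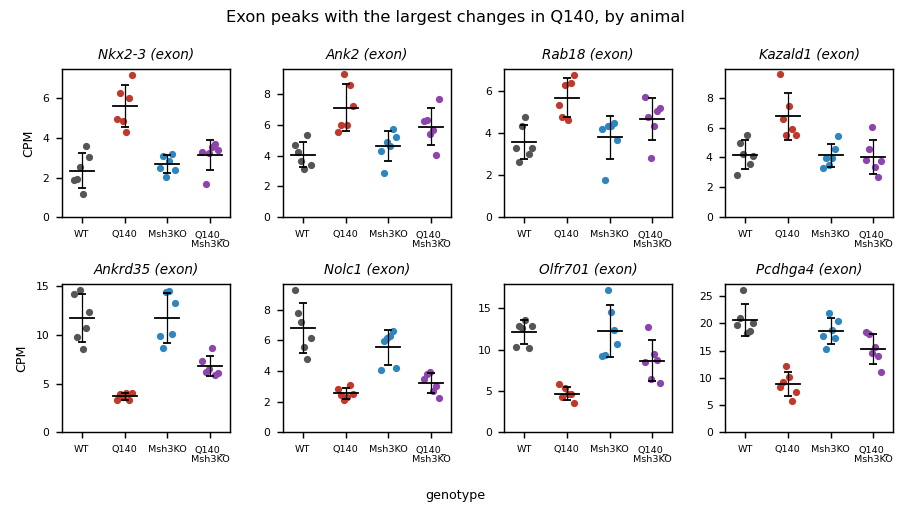
CPM (y axis, from 0) of the 8 exon peaks named for their change in Q140, by genotype (x axis), with 1 point per animal, a long bar at the mean and short bars at 1 SD (n = 6). At Ankrd35 the Q140 animals sit at 3.31 to 4.06 and the Q140_Msh3KO animals at 5.90 to 8.68, with the WT animals at 8.49 to 14.6.

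The 5' UTR peaks that rose were led by Cdkn2b, which encodes the cell cycle inhibitor p15 (chr4:89310481-89311227; the CRE printed above lies in this peak). It held 4.34 to 6.30 (median 5.35) in WT and 7.75 to 11.2 (median 9.13) in Q140. In Msh3KO and Q140_Msh3KO it held 4.10 to 6.31 (median 5.48) and 3.53 to 5.97 (median 4.86). Every Q140 library was above every library of the other 3 genotypes, and Q140 differed from WT by 0.80 ± 0.15 (adjusted p = 1.4e-04). Vgll2, a cofactor of TEAD factors in muscle (chr10:52022282-52023122), held 4.69 to 6.45 (median 5.84) in WT and 7.32 to 11.2 (median 8.92) in Q140, a rise of 0.71 ± 0.13 (adjusted p = 2.5e-04) with no overlap. Optn, the autophagy receptor optineurin (chr2:5063597-5064219), held 2.37 to 4.70 (median 3.46) in WT and 4.84 to 7.09 (median 5.26) in Q140, a rise of 0.68 ± 0.17 (adjusted p = 0.00492). Msh3KO animals held 3.64 to 6.86 (median 4.98) CPM at Optn, a range that overlaps both.

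Fewer 5' UTR peaks fell. Tbc1d5, a Rab regulator that works with the retromer (chr17:51158929-51159610), held 4.54 to 8.78 (median 7.73) in WT and 3.42 to 5.79 (median 4.62) in Q140, and fell by 0.65 ± 0.16 (adjusted p = 0.00465). Naif1, a nuclear factor that can induce apoptosis (chr2:32450351-32450812), had 8.45 to 15.3 (median 9.94) in WT and 5.79 to 8.62 (median 6.95) in Q140 and fell by 0.60 ± 0.15 (adjusted p = 0.00652). In both genes the WT and Q140 ranges overlapped. The first exon of Pcdhga7 fell by 0.56 ± 0.14 (adjusted p = 0.00539). It held 6.03 to 7.92 (median 7.43) in WT and 3.68 to 5.83 (median 4.91) in Q140, without overlap.

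Among 3' UTR peaks, the named peak with the largest rise was in Kpnb1, the nuclear import receptor importin beta (chr11:97160296-97160870). It held 2.82 to 3.84 (median 3.02) in WT and 5.20 to 10.8 (median 7.03) in Q140. Without Msh3 it held 2.21 to 5.02 (median 4.39) in Msh3KO and 3.53 to 7.70 (median 4.09) in Q140_Msh3KO. Q140 differed from WT by 1.29 ± 0.18 (adjusted p = 3.4e-06), while the Kpnb1 promoter peak changed by 0.09 ± 0.11 (adjusted p = 0.733). The last exon of Nsd3, a histone H3 lysine 36 methyltransferase (chr8:25677344-25677798), held 2.39 to 3.52 (median 2.73) in WT and 4.40 to 7.40 (median 5.73) in Q140, a rise of 1.03 ± 0.18 (adjusted p = 7.1e-05). In both genes all Q140 libraries were above all WT libraries. The annotated start nearest to the Kpnb1 peak belongs to Tbkbp1.

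The named 3' UTR peaks that fell were in Atat1, Megf11 and Cd59a. Atat1, which acetylates alpha-tubulin (chr17:35900642-35900923), held 3.52 to 6.73 (median 5.37) in WT and 1.27 to 3.30 (median 2.18) in Q140, a change of -1.23 ± 0.19 (adjusted p = 8.7e-06). Its promoter peak had 18.5 CPM in WT and 18.8 in Q140. Megf11, a cell surface protein with EGF-like repeats (chr9:64708500-64708981), held 4.98 to 8.10 (median 6.56) in WT and 2.23 to 4.27 (median 2.96) in Q140, a change of -1.08 ± 0.17 (adjusted p = 2.2e-05). In both genes the Q140 libraries lay below all WT libraries. Cd59a, which blocks the complement pore (chr2:104114199-104114789), held 6.45 to 15.6 (median 8.66) in WT and 3.45 to 5.81 (median 4.85) in Q140, a change of -1.06 ± 0.22 (adjusted p = 0.00118). Its near copy Cd59b lies on the same chromosome, and the TTS peak annotated to Cd59b (chr2:104084570-104085260) fell by 1.42 ± 0.16 (adjusted p = 2.4e-07). That peak held 18.3 to 32.6 (median 19.1) in WT and 6.14 to 9.92 (median 9.01) in Q140, without overlap. Reads of the 2 copies may be shared, so both values are uncertain.

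At transcript ends, the peak beside Mir429 (chr4:156052980-156053534) held 6.31 to 11.7 (median 8.32) in WT and 1.45 to 4.16 (median 2.78) in Q140. Without Msh3 it held 5.64 to 8.57 (median 7.53) in Msh3KO and 2.85 to 4.56 (median 3.64) in Q140_Msh3KO. In both pairs the animals with the Q140 allele lay below all of those without, and Q140 differed from WT by -1.59 ± 0.18 (adjusted p = 6.3e-08). The peak ends 370 bases from the Mir429 hairpin, on the side of its 3' end. The neighbouring peaks on either side of the cluster, an exon peak of Ttll10 and an intron peak, had 1.53 and 2.01 CPM in WT and changes of 0.08 ± 0.27 and -0.35 ± 0.27 that did not pass the test (adjusted p = 0.930 and 0.534). Peaks of the 4 classes overlapped 37 miRNA hairpins, all at TTS peaks. Of those 37 peaks 1 was called, against 7.89% of all TTS peaks and 10.3% of the whole table. The called peak was the TTS peak over Mir8094, lower in Q140, from 9.66 ± 1.21 to 7.24 ± 0.619 CPM (mean ± SD), a change of -0.41 ± 0.13 (adjusted p = 0.0279). It did not pass without Q140 F2 and Q140_Msh3KO M1 (-0.39, adjusted p = 0.0627).

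The end of Gadd45a, a stress response gene that acts in DNA repair and growth arrest (chr6:67034235-67034936), held 6.30 to 11.9 (median 9.57) in WT and 2.61 to 5.55 (median 3.31) in Q140. Its change was -1.39 ± 0.18 (adjusted p = 6.1e-07) with no overlap. Peaks at the ends of Fshb, the beta chain of follicle-stimulating hormone (chr2:107055205-107055759), Ift81, a cilium transport protein (chr5:122548690-122549759), and Atp2c1, the calcium pump of the Golgi (chr9:105410646-105411108), rose. Fshb held 2.64 to 3.08 (median 2.92) in WT and 4.61 to 6.97 (median 5.84) in Q140, with a rise of 1.00 ± 0.16 (adjusted p = 3.0e-05). Ift81 held 5.72 to 7.07 (median 6.67) in WT and 9.45 to 14.5 (median 12.6) in Q140, with a rise of 0.92 ± 0.16 (adjusted p = 5.2e-05). In both, every Q140 library was above every WT library. Atp2c1 held 1.58 to 3.31 (median 2.42) in WT and 3.78 to 7.05 (median 5.26) in Q140, with a rise of 1.06 ± 0.30 (adjusted p = 0.0217) that was lost in 3 of the fits that left out 1 library (without Q140 F3, WT F1 or WT M2), where the adjusted p reached 0.0590.

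**Figure D4:**
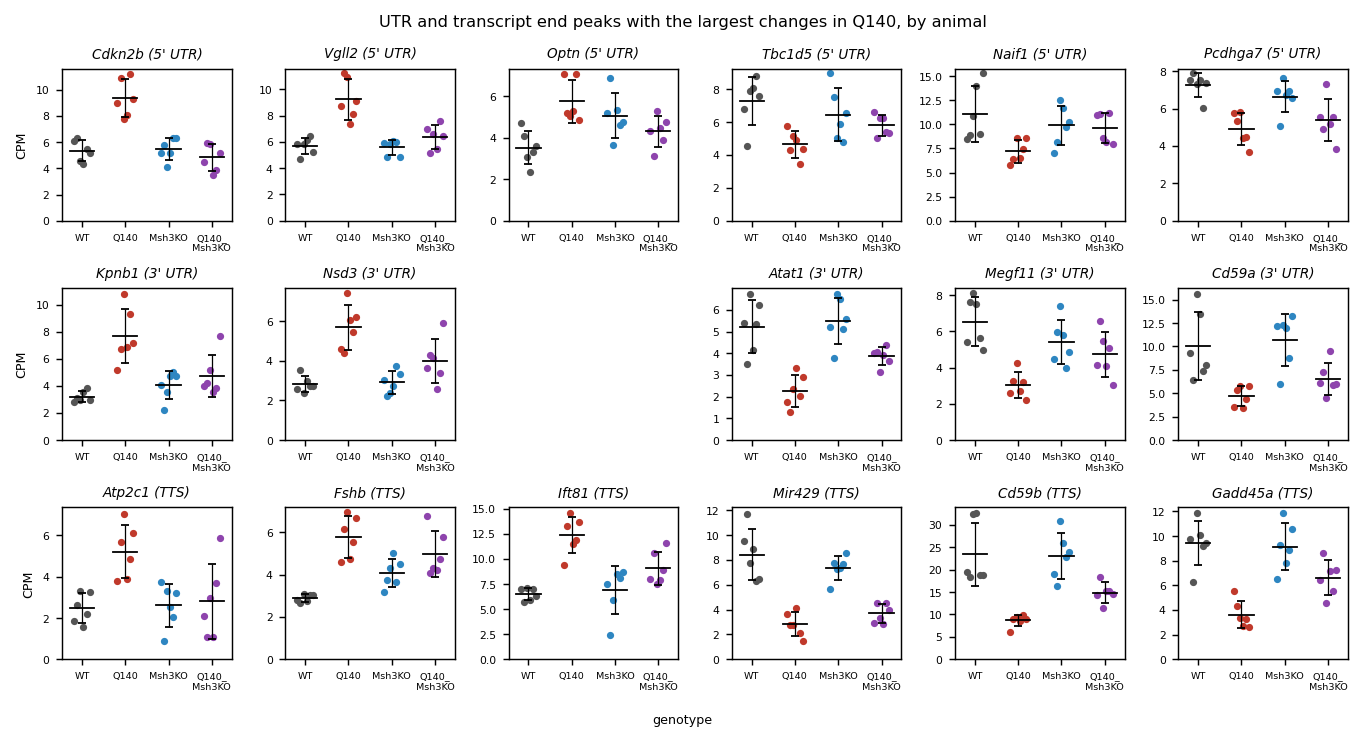
CPM (y axis, from 0) by genotype of the named 5' UTR (top), 3' UTR (middle) and TTS peaks (bottom), with 1 point per animal, a long bar at the mean and short bars at 1 SD (n = 6); the panels left of the middle rose and those right of it fell in Q140. Q140 animals stand above the other 3 genotypes at Cdkn2b, and at Mir429 the Q140 and Q140_Msh3KO animals both lie under the WT and Msh3KO animals.

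Called peaks were spread over 630 host genes, and 26 genes held more than 1. In 20 of the 26 all called peaks fell, in 2 (Irs1 and Pcdh20) all rose, and in 4 (Med13l, Nrcam, Scn8a and Slc4a8) they went both ways. Most called members were lower in any case, 458 of 657. Without Q140 F2 and Q140_Msh3KO M1, 20 of the 26 still held more than 1 called peak, and Med13l no longer held calls of both signs. These genes were picked out after their values were seen. Plekhh1, which encodes a pleckstrin homology domain protein, held 6 tested exon peaks, of which 3 fell (-0.86 ± 0.19, -1.17 ± 0.13 and -0.98 ± 0.24), and the other 3 had changes of -0.14 ± 0.27, 0.35 ± 0.27 and -0.04 ± 0.21. Rgs4, a brake on G protein signalling, fell both in its 3' UTR (-0.79 ± 0.14) and beyond its end (-0.50 ± 0.15). In Msl1, a subunit of a histone acetyltransferase complex, a pair of 3' UTR peaks fell, from means of 9.63 to 5.22 CPM and from 6.99 to 3.45 CPM, and the exon peak had -0.14 ± 0.12. Irs1, the adaptor of the insulin receptor, rose in its exon (0.77 ± 0.19) and 5' UTR (0.47 ± 0.12). Peaks of a gene can lie side by side, so their shared signs are not separate evidence. Examples are Irs1 (chr1:82290182-82290448 and chr1:82290540-82291829) and Rgs4 (chr1:169740453-169741110 and chr1:169741258-169741975).

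Promoter peaks of the host genes had few calls, as had promoter peaks at large, of which 3.31% were called, 1.84% higher and 1.47% lower. Of the 212 lower exon peaks, 115 had a promoter peak of the same gene, and 2 of these promoters were called lower and 0 higher. The median change was -0.62 at the exon peaks, a value set by their choice as lower peaks. It was 0.04 at these promoters, 45 of which had a negative sign. For the 106 lower 3' UTR peaks, 60 had a promoter peak, 1 of them called lower and 0 higher, and for the 126 lower TTS peaks 54 had one, with 1 called each way. Among the 70 higher exon peaks, 32 had a promoter peak, of which 2 were called higher and 1 lower. Intron peaks of the genes with lower exon peaks were called lower in 9.53% of 1290 cases and higher in 1.47%, against 6.55 and 3.85% of all intron peaks. For genes with lower TTS peaks it was 8.81 and 2.66% of 488, and for lower 3' UTR peaks 7.62 and 2.90% of 656. Intron peaks of genes with higher exon peaks were also called lower more often than higher, in 5.28 and 2.99% of 568 cases. For genes with higher 3' UTR peaks it was 5.80 and 3.71% of 431, and for higher TTS peaks 5.23 and 2.33% of 344. For higher 5' UTR peaks it was 3.64% lower and 4.85% higher of 165.

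Genes of striatal projection neuron identity had 72 member peaks, of which 1 rose and 5 fell in Q140, with a median of -0.11 against -0.01 over all peaks. That is 8.33% called, under the 10.3% of the whole table. The end of Penk, the enkephalin precursor of indirect pathway neurons (chr4:4132304-4133002), held 8.22 to 12.2 (median 9.96) in WT and 2.89 to 5.40 (median 4.55) in Q140. It fell by 1.15 ± 0.15 (adjusted p = 6.1e-07) with no overlap, while its promoter peak changed by -0.17 ± 0.12 (adjusted p = 0.457). The 3' UTR of Scn4b, a sodium channel subunit enriched in striatum, was called lower in 2 of its 3 peaks (-0.87 ± 0.17 and -0.54 ± 0.12). The other peak had -0.55 ± 0.22 and did not pass (adjusted p = 0.105). Also lower were the end of Arpp21 (-0.99 ± 0.15) and an exon of Chrm1 (-0.60 ± 0.19), both named after their values were seen. Chrm1 did not pass without Q140 F2 and Q140_Msh3KO M1 (-0.58, adjusted p = 0.0741). Foxp1, a transcription factor of projection neurons, went the other way at its end (chr6:98924666-98925351), with 6.89 to 10.9 (median 8.08) in WT and 8.62 to 17.8 (median 12.3) in Q140 and a rise of 0.59 ± 0.17 (adjusted p = 0.0167). Of 20 peaks of activity-regulated genes 1 (5%) fell, the end of Egr1, an activity-induced transcription factor. It held 7.41 to 21.5 (median 12.7) in WT and 6.14 to 11.9 (median 7.97) in Q140, overlapping ranges with a change of -0.65 ± 0.18 (adjusted p = 0.0114).

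Polycomb-controlled developmental regulators had 103 tested peaks, of which 5 rose and 0 fell, with a median of 0.05. The 5 were Nkx2-3 and Cdkn2b (above), Nkx2-5 (0.46 ± 0.15), Pax9 (0.68 ± 0.20) and Irx3 (0.51 ± 0.16), all tissue patterning or growth control genes. The share called higher was 4.85%, against 4.2% of the whole table and 1.15% (exon) to 2.5% (3' UTR) in the 4 classes. DESeq2 called 3 of the 103. With Q140 F2 and Q140_Msh3KO M1 left out, 3 of the 5 passed, while Nkx2-5 (0.46, adjusted p = 0.0760) and Irx3 (0.42, adjusted p = 0.115) did not pass. Hox genes had 14 tested peaks, of which the 3' UTR of Hoxb8 rose (0.80 ± 0.27, adjusted p = 0.0496), a call lost in 13 of 31 other fits, DESeq2 among them, and without Q140 F2 and Q140_Msh3KO M1 (adjusted p = 0.0701). Clustered protocadherins had 43 peaks, of which 0 rose and 5 fell, with a median of -0.14. Beside Pcdhga4 and Pcdhga7 these were Pcdhga11 (-0.46 ± 0.15), Pcdhga12 (-0.40 ± 0.13) and Pcdhgb4 (-0.70 ± 0.19), all in the gamma cluster. The share called lower was 11.6%, against 6.11% of the whole table, and Pcdhga11 did not pass without Q140 F2 and Q140_Msh3KO M1 (-0.41, adjusted p = 0.105). Olfactory receptor genes, which encode odour receptors of the nose, had 20 peaks, of which 6 fell and 0 rose, with a median of 0.02. Olfr873 (-1.21 ± 0.21) and Olfr453 (-1.33 ± 0.17) were among them. That is 30% called lower, and 6 were also called without those libraries.

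Shares called at ion channel and synapse genes lay under the 10.3% of the whole table, while the 4 classes had 2.98% (5' UTR) to 8.53% (3' UTR). Voltage-gated channels had 1 higher and 4 lower of 116 peaks (4.31% called), the higher one at the end of Scn8a, a sodium channel of the axon initial segment (0.43 ± 0.13, adjusted p = 0.0226), which also held a lower exon peak (-0.53 ± 0.16). Of 84 peaks at glutamate receptors and postsynaptic scaffolds, 2 rose and 2 fell (4.76% called), and without Q140 F2 and Q140_Msh3KO M1 1 was called each way. An exon of Grm5, a metabotropic receptor (chr7:87803628-87804169), held 6.89 to 12.8 (median 7.57) in WT and 3.54 to 6.83 (median 4.74) in Q140, a change of -0.73 ± 0.18 (adjusted p = 0.00482). The 5' UTR peak of Shank2, a postsynaptic scaffold (chr7:144175500-144176178), held 3.36 to 6.45 (median 5.90) in WT and 7.09 to 9.76 (median 8.53) in Q140, a change of 0.59 ± 0.14 (adjusted p = 0.00380). Axon guidance genes had 3 higher and 3 lower of 86 (6.98% called), or 2 each way without those libraries, with Sema3a higher (0.60 ± 0.17, adjusted p = 0.0160) and its receptor chain Plxna4 lower (-0.86 ± 0.21, adjusted p = 0.00396), both in the 3' UTR. GABA receptor and synthesis genes had 0 calls of 15 by edgeR and by DESeq2, with 2 at an unadjusted p under 0.05 and a median of 0.05.

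Numbered Zfp zinc finger genes had 1 higher and 7 lower of 232 peaks, and 1 and 3 without Q140 F2 and Q140_Msh3KO M1. That is 3.45% called, against 10.3% of the table and 2.98 to 8.53% in the 4 classes. The higher one was in the 5' UTR of Zfp7 (0.59 ± 0.14, adjusted p = 0.00294). Histone genes had 1 higher of 18 (5.56%), at the single exon of the linker histone gene H1f5 (0.65 ± 0.15, adjusted p = 0.00327). Heat shock and chaperone genes had 3 lower of 55 (5.45%), namely the 3' UTR of Dnajb2, a neuronal co-chaperone (-0.45 ± 0.13, adjusted p = 0.0198), Dnajc1, and Hspg2, a matrix proteoglycan that the name pattern took in. Dnajb2 did not pass without Q140 F2 and Q140_Msh3KO M1 (adjusted p = 0.0633). Mismatch repair and repeat instability genes had 1 lower of 9 (11.1%), the end of Lig1, the DNA ligase of replication (chr7:13311674-13311994), which held 1.92 to 3.51 (median 2.70) in WT and 0.784 to 1.89 (median 1.10) in Q140 and changed by -1.12 ± 0.25 (adjusted p = 0.00145) with no overlap. Cholesterol synthesis genes had 0 calls of 15 by edgeR and by DESeq2, with 0 at an unadjusted p under 0.05. Of the marker lists for other cells, astrocyte (11 peaks), oligodendrocyte (9), microglia (3), endothelial and pericyte (6) and striatal interneuron genes (6) had 0 calls by edgeR and by DESeq2, with 2, 1, 0, 0 and 1 peaks at an unadjusted p under 0.05. Cortical glutamatergic markers had 1 higher of 19 (5.26%), an exon of Neurod2 (0.78 ± 0.21, adjusted p = 0.00982).

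Few member peaks were called for the removal of Msh3 from Q140 animals. In Q140_Msh3KO against Q140, exon peaks were called 9 times higher and 3 times lower of 6061, TTS peaks 6 and 1 of 2193, 3' UTR peaks 3 and 1 of 1759, and 5' UTR peaks 0 and 2 of 1746. That is 25 of 11759, against 0.529% of all tested peaks (0.31% higher and 0.219% lower). These values share the Q140 animals with the comparison above, so both are given side by side and no overlap is read from them. Without Q140 F2 and Q140_Msh3KO M1 the calls fell to 7 exon, 1 TTS, 1 5' UTR and 0 3' UTR peaks. The exon calls of both fits include 2 higher peaks of Msh3 itself, the gene removed.

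Peaks that were higher in Q140_Msh3KO than in Q140 included Ankrd35 (0.87 ± 0.17, adjusted p = 0.00461), Pcdhga4 (0.78 ± 0.14, adjusted p = 0.00156) and Olfr701 (0.88 ± 0.17, adjusted p = 0.00776). Mean levels at Ankrd35 (± SD) were 3.70 ± 0.352 CPM in Q140 and 6.78 ± 1.05 in Q140_Msh3KO, and 11.7 ± 2.45 in WT. At the end of Cd59b the change was 0.77 ± 0.17 (adjusted p = 0.0211), at that of Arpp21 0.68 ± 0.15 (adjusted p = 0.0254) and at that of Gadd45a 0.86 ± 0.19 (adjusted p = 0.0155). Olfr453 had 0.88 ± 0.17 (adjusted p = 0.00531) at its end. In 3' UTRs, Nt5c3, a pyrimidine nucleotidase, rose by 0.73 ± 0.18 (adjusted p = 0.0342) and Thg1l, which adds a base to histidine tRNA, by 0.62 ± 0.15 (adjusted p = 0.0337). Exon peaks of Cdk13, Cenpf, Ncapd2 and Gcc2, genes of transcription, chromosome structure and the Golgi, had 0.87 ± 0.19 (adjusted p = 0.0226), 1.06 ± 0.23 (adjusted p = 0.0143), 0.80 ± 0.16 (adjusted p = 0.00937) and 0.61 ± 0.14 (adjusted p = 0.0299), named after their values were seen.

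Lower in Q140_Msh3KO than in Q140 were the 5' UTR peak of Cdkn2b (-0.92 ± 0.15, adjusted p = 5.1e-04), exon peaks of Nkx2-3 (-0.85 ± 0.18, adjusted p = 0.0128) and Nkx2-5, a cardiac homeobox factor (-0.81 ± 0.16, adjusted p = 0.00611), the end of Hlx, another homeobox gene (-0.71 ± 0.15, adjusted p = 0.0168), the 5' UTR of Vgll2 (-0.55 ± 0.13, adjusted p = 0.0348) and the 3' UTR of Kpnb1 (-0.68 ± 0.17, adjusted p = 0.0491). Nkx2-5 held 5.31 to 8.71 (median 6.72) CPM in Q140 and 3.51 to 4.21 (median 3.97) in Q140_Msh3KO, with no overlap, and Cdkn2b did not overlap either. Without Q140 F2 and Q140_Msh3KO M1, calls held for Ankrd35 (adjusted p = 0.0466), Pcdhga4 (0.0229), Cdkn2b (0.0196), Nkx2-5 (0.0411), Cenpf (0.0124) and Ncapd2 (0.0491). The calls at the other genes of this comparison named above, Msh3 aside, were lost, each with the same sign. The log2 changes without the 2 libraries were Nkx2-3 (-0.80, adjusted p = 0.102), Hlx (-0.66, adjusted p = 0.106), Gadd45a (0.87, adjusted p = 0.0694), Cd59b (0.78, adjusted p = 0.0839), Arpp21 (0.70, adjusted p = 0.0837), Olfr701 (0.80, adjusted p = 0.0711) and Olfr453 (0.77, adjusted p = 0.0711). They were Vgll2 (-0.46, adjusted p = 0.245), Kpnb1 (-0.61, adjusted p = 0.220), Nt5c3 (0.69, adjusted p = 0.164), Thg1l (0.55, adjusted p = 0.180), Cdk13 (0.76, adjusted p = 0.138) and Gcc2 (0.57, adjusted p = 0.143) for the rest.

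Among animals that lacked Msh3, 7 member peaks were called for the Q140 allele, all lower: 4 in exons, 2 in 3' UTRs, 1 at a TTS and 0 in 5' UTRs, against 0.116% of all tested peaks (0.0233% higher and 0.0924% lower). In 5' UTR peaks 34 of 1746 had an unadjusted p under 0.05, and DESeq2 also called 0. The 7 were Mir429 (-1.01 ± 0.18, adjusted p = 0.0107), Ankrd35 (-0.82 ± 0.15, adjusted p = 0.0107), Nolc1 (-0.81 ± 0.17, adjusted p = 0.0376), Ddx46, an RNA helicase of splicing (-0.61 ± 0.12, adjusted p = 0.0262), Zan, the sperm protein zonadhesin (-0.76 ± 0.17, adjusted p = 0.0461), Npffr1, a neuropeptide receptor (-0.71 ± 0.16, adjusted p = 0.0481), and Epb41l4b, a cytoskeletal linker (-0.62 ± 0.14, adjusted p = 0.0481). Without Q140 F2 and Q140_Msh3KO M1, Nolc1 and Npffr1 no longer passed (adjusted p = 0.0678 and 0.0600). The 3' UTR calls fell to 0 in most fits that left out 1 library. Exon calls fell to 0 without Msh3KO M1 and without Q140_Msh3KO M3, and TTS calls ran from 1 to 5. This comparison shares no animals with Q140 against WT. All 7 were also called lower there, which is 100% of the 7 and 1.53% of the 458. Over the whole table it was 130 of 135 (96.3%) and 1.46% of 8924, so the members' overlap is near that of all peaks.

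Of the 458 members lower in Q140 against WT, 422 also had a negative sign without Msh3, with medians of -0.62 with Msh3 and -0.23 without. Of the 199 higher members 159 had a positive sign without Msh3, 0 were called, and the medians were 0.56 and 0.18. These peaks were chosen by their values with Msh3, so the medians with Msh3 are set by the choice and no test is given. Over all called peaks, 92.3% of lower and 88.1% of higher ones kept their sign, against 92.1 and 79.9% here. By class, the share of higher peaks with the same sign was 80.0% in exon, 68.4% in 5' UTR, 90.9% in 3' UTR and 78.7% in TTS peaks, and that of lower peaks 93.9, 85.7, 95.3 and 87.3%.

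**Figure D5:**
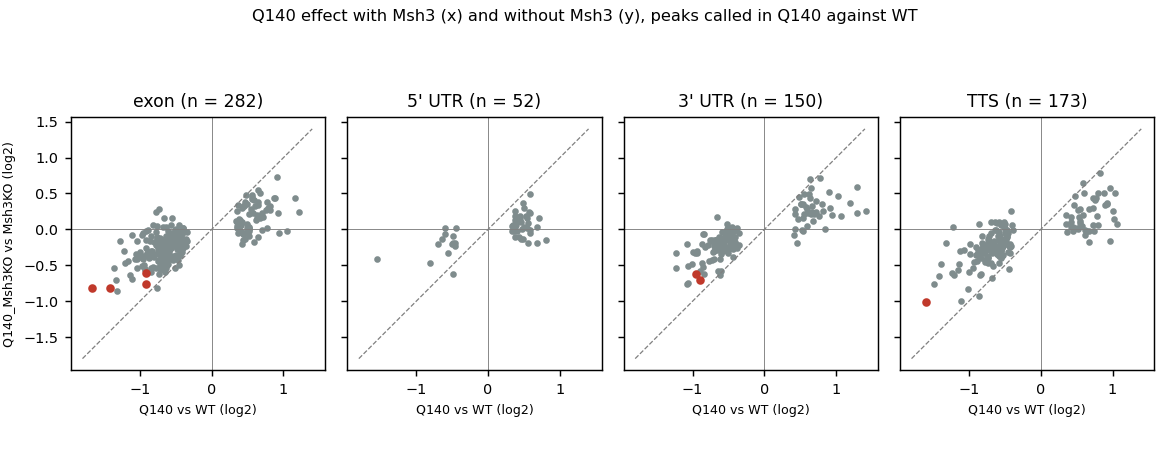
Log2 fold change of the Q140 allele with Msh3 (x axis, Q140 against WT) and without Msh3 (y axis, Q140_Msh3KO against Msh3KO) for each member called in Q140 against WT, 1 panel per class; red points were also called without Msh3 and the dashed line marks equal changes. Most points lie between the horizontal axis and the dashed line, and the 7 red points are all lower.

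For loss of Msh3 in animals with normal Htt, 2 of the 11759 tested members were called, both in exons of Msh3, against 0.013% of all tested peaks. The peak at exon 7 of 24 (chr13:92344656-92345403) held 1.59 to 3.66 (median 2.49) in WT, 6.26 to 8.20 (median 6.89) in Msh3KO, 1.94 to 3.54 (median 2.57) in Q140 and 5.56 to 7.81 (median 7.02) in Q140_Msh3KO. The peak at exon 17 of 24 (chr13:92263596-92263917) held 0.823 to 1.78 (median 1.54) in WT, 2.86 to 4.28 (median 3.43) in Msh3KO, 0.708 to 1.22 (median 0.903) in Q140 and 1.74 to 3.11 (median 2.84) in Q140_Msh3KO. At both peaks all Msh3KO libraries were above all WT libraries, and all Q140_Msh3KO libraries above all Q140 libraries, with rises of 1.54 ± 0.18 (adjusted p = 9.1e-07) and 1.34 ± 0.22 (adjusted p = 0.00231) in Msh3KO against WT. In Q140_Msh3KO against Q140 the rises were 1.41 ± 0.17 (adjusted p = 1.7e-06) and 1.49 ± 0.23 (adjusted p = 3.9e-04). Which part of the gene was deleted was not given in the sources used here, so these peaks separate the labelled genotypes and check nothing about the protein. The 5' UTR, 3' UTR and TTS classes had 0 calls in Msh3KO against WT by edgeR and by DESeq2, with 30, 57 and 84 peaks at an unadjusted p under 0.05. The 1 exon peak of Htt, at exon 50 of 67 (chr5:34885256-34885608), held 2.49 to 4.94 (median 3.75) in WT, 2.73 to 4.43 (median 3.05) in Msh3KO, 3.42 to 4.31 (median 4.04) in Q140 and 2.87 to 4.21 (median 3.68) in Q140_Msh3KO. The 4 ranges overlap, and Q140 differed from WT by 0.14 ± 0.17 (adjusted p = 0.751).

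The difference between the Q140 effect without and with Msh3 was tested directly as an interaction. It was called for 1 member, the end of Olfr453 (chr6:42744907-42745332), against 0.0226% of all tested peaks. This peak held 6.52 to 12.3 (median 9.45) in WT and 3.01 to 5.05 (median 3.48) in Q140, and without Msh3 5.49 to 10.6 (median 7.34) in Msh3KO and 5.04 to 8.12 (median 7.20) in Q140_Msh3KO. The Q140 effect was -1.33 ± 0.17 with Msh3 and -0.19 ± 0.16 without, a difference of 1.14 ± 0.23 (adjusted p = 0.0497). The call lay at the threshold and was lost in 21 of 24 fits that left out 1 library, with differences of 1.02 to 1.23, and without Q140 F2 and Q140_Msh3KO M1 (adjusted p = 0.240). Exon, 5' UTR and 3' UTR peaks had 0 calls, with 286, 67 and 122 peaks at an unadjusted p under 0.05, and DESeq2 called 1, 1 and 0. For Pcdhga4 the difference was 0.92 ± 0.19 (adjusted p = 0.0513), and for Cdkn2b -0.95 ± 0.22 (adjusted p = 0.107).

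The most open members per base in WT are given as levels only. Among TTS peaks these were the ends of Wls, a carrier of Wnt proteins (299 CPM per kb), Pisd-ps1, a pseudogene (90.9), and Prss57, a serine protease (64.9). Among 3' UTR peaks, Lars2, the mitochondrial leucyl-tRNA synthetase, had 261, and the phosphatase Ppm1f and the actin protein Synpo had 53.0 and 51.1. The 5' UTR peaks of Tarbp2, a partner of Dicer, Zfp574 and the kinase Taok2 had 77.9, 74.0 and 57.0. Exon peaks of Dbp, a clock output gene, Dux, a repeated homeobox gene, and Lrif1, a chromosome-binding factor, had 68.9, 56.5 and 55.1. Of these 12 peaks, Lars2 alone was called in Q140 against WT, from 166 ± 19.2 to 127 ± 17.2 CPM, a change of -0.39 ± 0.11 (adjusted p = 0.0149). It held 134 to 188 (median 169.7) in WT and 96.7 to 141 (median 133) in Q140, with an overlap. Dux and Pisd-ps1 have near-identical copies, so their counts are uncertain. In Msh3KO F1, F2 and F3, Wls held 181, 216 and 97.7 CPM, where Dux held 143, 132 and 50.3. A promoter peak of Wls held 2.45 CPM in WT. Whether reads at Wls, Lars2 or the other peaks map to several places was not tested.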

How the data were processed

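ATAC-seq libraries from sorted neuronal nuclei of 24 mice were analysed from 1 table in which the authors deposited raw read counts per peak. The submitters' processing notes name GRCm38 and the tools featureCounts, MACS2, Picard, SAMtools and BWA. Versions, settings and the treatment of duplicate or multiply mapped reads were not given in the sources used here. The deposited table held 0 columns of other samples. Groups and sex came from the labels. Peak classes came from the annotation column, and host genes from the transcript it names, matched to RefSeq on GRCm38.p6.

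Counts were fitted in edgeR 4.0.16 (R 4.3.3) by the quasi-likelihood test, with TMM scaling, filterByExpr at a count minimum of 10 (146155 of 147020 peaks tested) and 1 term each for genotype and sex over all 24 libraries. Calls were made at 0.05 after Benjamini-Hochberg adjustment across the whole tested table. Values after ± are standard errors for log2 fold changes unless SD is stated. Levels are CPM on TMM-scaled library sizes. Tables used pandas 2.3.3 and numpy 2.4.6. On simulated counts for Q140 against WT (145984 peaks), 97 of 100 peaks changed by 2 on the log2 scale and 60 of 100 changed by 1 were recovered, with 11 false calls. No other peaks were changed there, while 10.3% of peaks were called in the data. The adjusted threshold depends on that share, so these recoveries do not give the power of the real comparison.

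Named peaks were the called peaks of largest change with at least 5 CPM in the higher genotype and a gene symbol that is no clone or model name. In Q140 against WT these were 4 per direction for exons and 3 for the other classes, and in Q140_Msh3KO against Q140 2 per direction. Added to these were the called peaks of the comparisons of Msh3KO with WT and of the interaction (up to 3 a class), the called peak of smallest p per direction of each of 21 gene lists, the 3 highest per kb in each class, and all peaks of Htt and Msh3. A 3' UTR peak that this rule names is not reported here. Others are named after their values were seen. Members and lists were chosen with earlier results of these data known. Alternatives were total-count scaling, DESeq2 1.42.0, no filter, only the genotypes compared, no sex term, a replicate block, leaving out each library, and, added after seeing the data, leaving out 2 libraries.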

Additional observations from a re-analysis of the deposited data

Results flagged for a closer look

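In 12 of 264 groups of 6 libraries, the highest or lowest library stood further from its group than Dixon's test allows at the 95% level, and chance alone marks about 1 in 20 groups. Among animals without Msh3, 3 peaks had a low library. Nkx2-3 held 1.67 CPM in Q140_Msh3KO F2 (others 3.23 to 3.71), Rab18 1.77 in Msh3KO F2 (3.69 to 4.49) and Sema3a 2.21 in Msh3KO F2 (3.57 to 4.20). Nkx2-5 was high in Msh3KO F1, with 5.92 CPM against 3.78 to 4.28.

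In WT, library F3 was high at Pcdhga4 (26.1 CPM, others 18.2 to 21.0) and Foxp1 (10.9, others 6.89 to 8.34), and low at Dux (60.0, others 98.7 to 121). Grm5 was high in WT M1 (12.8 CPM, others 6.89 to 7.75), Neurod2 in WT M3 (4.64, others 1.58 to 2.70), and Pcdhga7 was low in WT M2 (6.03, others 7.30 to 7.92). Library Q140_Msh3KO M1 had the lowest shares of counts in 3' UTR peaks (0.769%, others 0.897 to 0.945%) and TTS peaks (1.24%, others 1.45 to 1.55%) of its group.

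The Q140 effect at the end of Olfr453 differed between animals without and with Msh3 by 1.14 on the log2 scale in the interaction test, a call at the threshold that most fits with 1 library left out did not keep.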

How the results depend on the processing

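In Q140 against WT, lower calls outnumbered higher ones in exon, 3' UTR and TTS peaks, with the reverse in 5' UTR peaks, under every alternative run. The class medians lie near 0: over all fits they ran from -0.02 to 0.06 (exon), 0.01 to 0.12 (5' UTR), -0.05 to 0.02 (3' UTR) and -0.03 to 0.04 (TTS), with another sign in 5, 0, 13 and 5 fits. Total-count scaling gave 80 called 5' UTR peaks in place of 52. Leaving out each library in turn gave 202 to 308 exon, 36 to 69 5' UTR, 97 to 161 3' UTR and 135 to 195 TTS calls. In Q140_Msh3KO against Q140, leaving out Q140 F2 and Q140_Msh3KO M1 gave 7 exon, 1 5' UTR, 0 3' UTR and 1 TTS calls. DESeq2 and the fit with no filter gave 12 TTS calls each, and the fit with no sex term 2 3' UTR calls. Single libraries left out gave 8 to 17 exon, 1 to 3 5' UTR, 0 to 7 3' UTR and 2 to 12 TTS calls. In Q140_Msh3KO against Msh3KO, fitting only the genotypes compared gave 1 exon and 0 3' UTR calls, and DESeq2 gave 3 TTS calls. Single libraries left out gave 0 to 5 exon, 0 to 0 5' UTR, 0 to 3 3' UTR and 1 to 5 TTS calls. In Msh3KO against WT these were 2 to 2 exon calls and 0 to 0 in the other classes. For the interaction, exon calls were 1 with DESeq2, with no filter, with total-count scaling and with the replicate block, and 5' UTR calls were 1 with DESeq2. TTS calls were 2 with DESeq2 and 0 without Q140 F2 and Q140_Msh3KO M1. Single libraries left out gave 0 to 1 exon, 0 to 1 5' UTR, 0 to 1 3' UTR and 0 to 2 TTS calls. The cause was not tested.

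The replicate block gave 303 exon, 59 5' UTR, 156 3' UTR and 187 TTS calls in Q140 against WT. The numbers in the labels did not pair the samples: correlations of deviations ran from -0.33 to 0.47 over 36 same-number pairs, 11 above 0.1, and 7 of 24 libraries correlated best with their own number. Of 161 single-peak results followed, 81 kept their call in every fit, 80 lost it in at least 1, and 0 changed sign. With a median of 33 counts per library at a tested member, small changes are not detectable.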
